A study of Sus scrofa with 33 samples.

Results

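The cytosolic ribosomal protein genes were followed in the pituitary gland of pigs from 3 breed groups kept at a thermoneutral temperature or exposed to heat. A probe was taken as a member when its gene name on the array was RPL or RPS followed by a number and an optional letter, or RPLP0, RPLP1, RPLP2 or RPSA, which left out the RPS6K kinases and names that begin with LOC. By this rule 280 of 60305 probes belonged to 74 gene names, 39 of the large subunit, 32 of the small subunit and 3 of the stalk. Of these, 274 probes of 72 genes were kept, a probe being kept where the scanner called it well above background in 75% or more of the arrays in any of the 6 groups of breed and temperature, against 47083 probes kept over the whole array. RPL13 and RPS4X, named on 1 probe each, had no kept probe and are not described further. The brightest kept probe of a gene is called its chosen probe, and 43 of the 72 genes had at least 1 other kept probe beside it. All 72 chosen probes were well above background on all 33 arrays, so none passed the filter through a single group.

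The arrays came from castrated male pigs of the Large White breed (LW), the Creole breed (CR) and their cross (F1), with 1 array per animal, and all entered the rooms at 11 weeks of age. At thermoneutrality (TN, 24 °C) there were 5 LW, 5 CR and 6 F1 arrays, and under heat stress (HS) 6 LW, 6 CR and 5 F1 arrays. The temperature field reads 30 °C for HS animals, while the growth text gives 32 °C for 5 days and the study's methods 4 or 5 days. TN animals were slaughtered before the rise in temperature and HS animals after it, so temperature cannot be told apart from slaughter day or age, and pen and parents are not in the labels used here. LW HS 3 is LW by its title and Creole by its breed field, and it was analysed as LW.

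The ribosome is built from ribosomal RNA and a large set of mostly small, basic proteins, arranged in a large and a small subunit. The acidic stalk proteins of the large subunit recruit the factors that drive each step of elongation. The messenger RNAs of ribosomal proteins begin with a pyrimidine tract through which their translation follows mTOR signalling, and they are among the abundant messages of most cells, including the hormone-secreting cells of the pituitary.

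The median spot intensity of an array was 131 to 165, between 73.5% and 82.2% of its spots were well above background, no spot was saturated, and arrays correlated with each other at 0.977 to 0.996. The median background signal, which was not subtracted, was 20 to 26 on the 8 arrays of slide 5 and 33 to 47.5 on the others. Levels below are log2 quantile-normalized intensities, and because each probe has its own brightness they are not compared as amounts of RNA between genes. The pituitary hormone genes GH1 at 19.02, POMC at 19.01, PRL at 18.87 and CGA at 18.99 were near the top of the scale. The posterior lobe genes AVP at 16.99 and OXT at 15.67 were bright as well. The study's methods name the anterior lobe as the part sampled, and whether posterior lobe tissue was in the samples was not tested. The arrays lay on 5 slides, each with arrays of several groups, although slide 1 held 3 arrays and lacked CR TN, F1 TN and LW HS, and slide 4 lacked F1 HS.

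The chosen probes, each taken as the brightest of its gene, had a median level of 16.18, which describes that choice and is not set against other probes. RPL6, a large subunit protein, had the highest mean level at 18.26, followed by the small subunit protein RPS20 at 18.17 and the stalk protein RPLP1 at 18.00. At the other end stood the probes of RPS27L, a relative of RPS27, at 7.38, of RPL37 at 8.10 and of RPS2 at 8.40. The median SD within the 6 groups was 0.12 over the chosen probes, against 0.20 over all kept probes and 0.15 over the 1803 kept probes with a mean level of 14 or more. RPL32 varied least with an SD of 0.056, followed by RPL10 and the probe named RPL3L with 0.065 each.

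**Figure D1:**
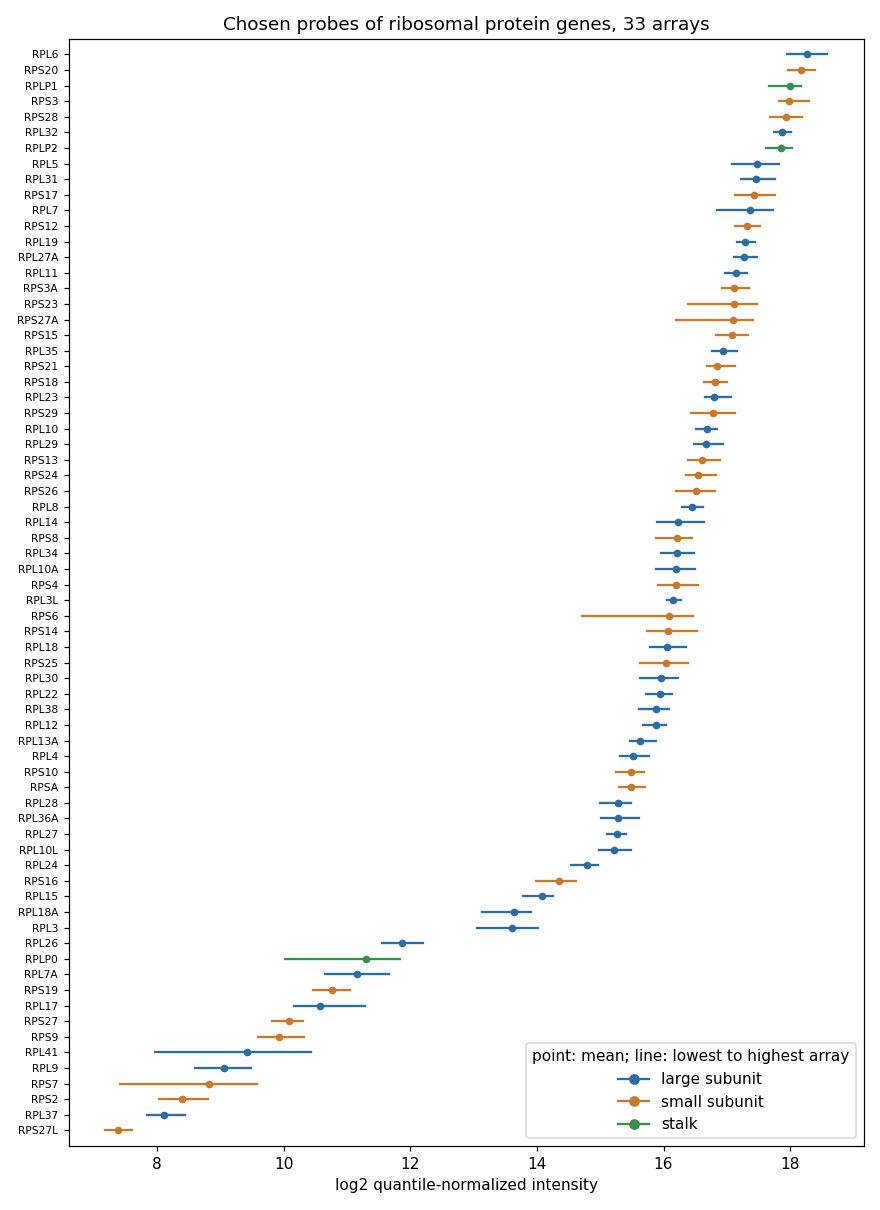
Level of the chosen probe of the ribosomal protein genes reported here (x axis, log2 quantile-normalized intensity); points are means over 33 arrays and lines run from the lowest to the highest array. Most genes sit between 14 and 18.26 with short lines, while RPL41, RPS7, RPS6, RPLP0 and RPS27A have long ones.

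Among the members that varied most within groups were RPL41 with an SD of 0.85, RPS7 with 0.79, RPS6 with 0.39 and RPLP0 with 0.35. RPL41, the shortest protein of the ribosome, and RPS7, which sits on the small subunit, moved with the slide. RPL41 read 7.96 to 8.79 (median 8.15) on the 10 arrays of slides 1 and 2 and 9.32 to 10.44 (median 9.92) on the 23 arrays of slides 3 to 5. RPS7 read 7.42 to 8.34 (median 7.67) and 8.97 to 9.57 (median 9.32) on the same arrays. For both probes the sets of slides did not overlap, whatever the breed or temperature of the animal. After the group means were taken out, RPL41 and RPS7 correlated at r = 0.98 over 33 arrays, at 0.92 within slides 1 and 2 and at 0.89 within slides 3 to 5, on arrays that share slide and hybridisation. A slide term was called (limma, adjusted p under 0.05) for 12 of the 72 chosen probes, beside 13 percent of all kept probes, with adjusted p = 7.39e-14 for RPS7 and 9.47e-12 for RPL41. A second probe of RPL28, A_72_P154356, split in the same way, at 11.35 to 11.79 on slides 1 and 2 and 12.37 to 13.01 on slides 3 to 5, whereas the chosen probe of RPL28 lay at 15.28 to 15.48 and 14.99 to 15.37.

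**Figure D2:**
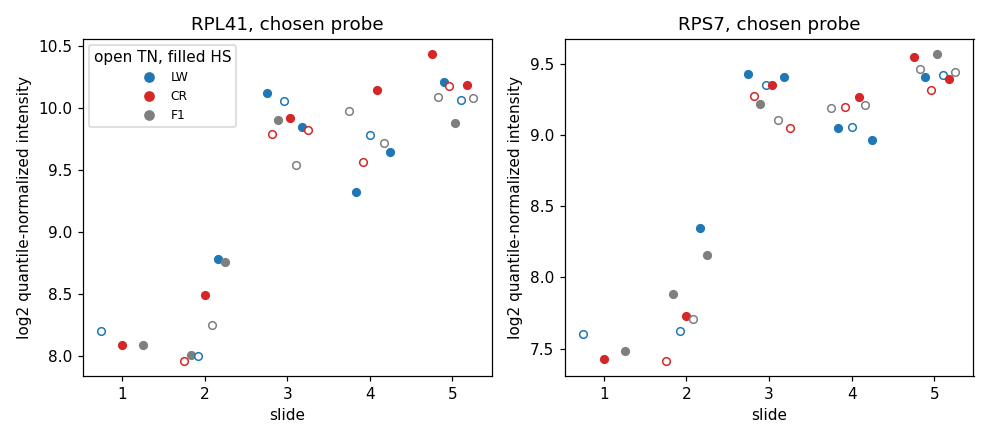
Level of the chosen probes of RPL41 and RPS7 (y axes, log2 quantile-normalized intensity) on each of 33 arrays by slide (x axis); colour is breed, open points are TN and filled points HS. On slides 1 and 2 RPL41 stays at or below 8.79, and on slides 3 to 5 at or above 9.32.

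Heat stress was compared with thermoneutrality over all breeds to ask whether ribosomal protein transcripts differ after 4 or 5 days of heat. No chosen probe passed the test (limma, adjusted p under 0.05, 0 of 72), beside 0.0191 percent of all kept probes, which is 9 probes, 8 of them lower in HS (0.017 percent). At an unadjusted p under 0.05 there were 7 members, all with higher means in HS, beside 8.68 percent of all kept probes. The sign leaned one way across the list. In HS 61 of 72 members had the higher mean, beside 53.9 percent of all kept probes, and 11 had the lower mean, beside 46.1 percent. The median log2 difference of the members was 0.042, against 0.0078 for all kept probes and 0.013 for those at a level of 14 or more. With the processed intensity scaled to the 75th percentile of each array, 64 of 72 members were higher and the medians were 0.067 for the members, 0.0069 for all kept probes and 0.050 for the bright ones. The median over members on a single array had a mean SD within groups of 0.05, of the same order as these member medians. Members share arrays, so the count is a description and not a test. In tissue of several cell types, a change in the share of a cell type and a change in RNA per cell cannot be told apart.

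RPL22, an RNA-binding protein of the large subunit, had the smallest p. Its level in LW was 15.72 to 15.92 (median 15.83) in TN and 15.87 to 16.12 (median 16.01) in HS. In CR it was 15.79 to 16.05 (median 15.99) in TN and 15.97 to 16.14 (median 16.03) in HS, and in F1 15.88 to 15.98 (median 15.91) and 15.89 to 16.05 (median 15.95). The HS animals stood higher in each breed but the ranges overlapped, and the log2 difference was 0.10 ± 0.034 (SE, n = 17 HS and 16 TN), limma adjusted p = 0.29. It lay above the TN mean of its breed on 15 of 17 HS arrays.

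RPS20 is a protein of the head of the small subunit. Its chosen probe read 18.04 to 18.18 in LW TN and 18.04 to 18.40 in LW HS, 18.08 to 18.24 in CR TN and 18.14 to 18.32 in CR HS, and 17.96 to 18.14 in F1 TN and 18.12 to 18.25 in F1 HS. The log2 difference was 0.10 ± 0.035 with limma adjusted p = 0.32, and 14 of 17 HS arrays lay above the TN mean of their breed. All 8 kept probes of RPS20, which form 2 sets without a shared run of 18 bases, had an unadjusted p under 0.05 and log2 differences of 0.10 to 0.13, and none was called. RPS25, a small subunit protein used by internal ribosome entry sites, had the largest difference at 0.12 ± 0.052 (limma adjusted p = 0.48), with 15 of 17 HS arrays above the TN mean of their breed. The other members with an unadjusted p under 0.05 were RPL19 at 0.078, RPL6 at 0.11, RPL34 at 0.10 and RPL11, a binder of MDM2, at 0.064. RPL6 depended on the probe, as 9 of its 15 kept probes had lower means in HS and 6 higher (-0.39 to 0.11, none called), and its value turned to -0.052 under 1 of 47 alternatives. Of the 5 kept probes of RPL11, 4 had higher means in HS and 1 lower. On the lower side the members with the smallest p were RPS23 at -0.067, RPL32 at -0.015 and RPL28 at -0.020, with adjusted p of 0.85 to 0.92. The stalk proteins read -0.022 for RPLP0, 0.021 for RPLP1 and 0.072 for RPLP2, none called.

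**Figure D3:**
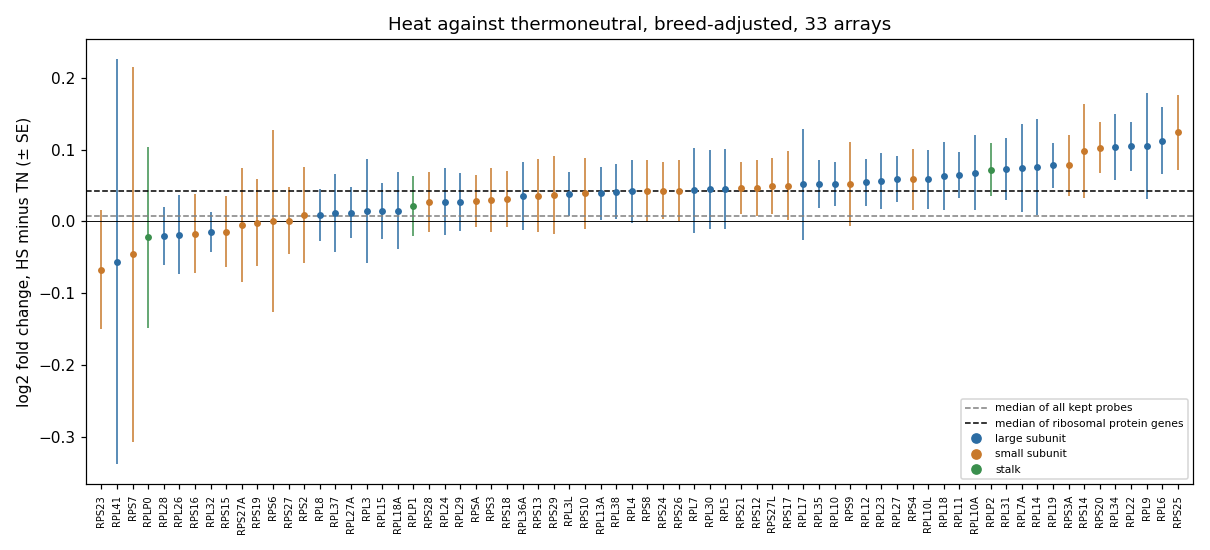
Log2 fold change of HS over TN with its SE (y axis) for the chosen probe of the ribosomal protein genes reported here (x axis), from the breed-adjusted fit of 33 arrays; dashed lines are the medians of all 72 members measured (0.042) and of all kept probes (0.0078). Most points lie above 0 and most error bars reach close to 0 or across it.

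Per array, the median deviation of the 72 members from their own means over the arrays was -0.059 to 0.058 (median -0.027) in TN and -0.095 to 0.17 (median 0.059) in HS, and the groups overlapped. The difference was 0.039 in LW, 0.064 in CR and 0.051 in F1. By slide it was 0.071, 0.14, 0.056, -0.018 and 0.010 for slides 1 to 5, with 1 TN array on slide 1. Without the arrays of slides 1 and 2, a choice made after these values were seen, 45 of 72 members were higher in HS and the median difference was 0.010. Leaving out any 1 array gave 58 to 64 members higher.

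Markers of other cell types were read in the same comparison, in which 46.1 percent of all kept probes had lower means in HS. Of all kept probes, 8.68 percent had an unadjusted p under 0.05 and 0.017 percent were called lower. All 10 endothelial and stromal genes had lower means in HS, with a median log2 difference of -0.24, 6 at an unadjusted p under 0.05 and 0 called. Their summed level was 14.51 to 15.59 in LW TN and 14.35 to 14.59 in LW HS, 14.98 to 15.74 in CR TN and 14.62 to 15.14 in CR HS, and 14.59 to 15.04 in F1 TN and 14.45 to 14.93 in F1 HS. All 4 kept blood genes had lower means, among them HBB, the beta chain of haemoglobin, which fell by 1.15 on the log2 scale (limma adjusted p = 0.031). The summed level of the blood genes was 11.80 to 13.08 over the TN groups and 11.63 to 12.31 over the HS groups. The 13 kept leukocyte genes had a median of -0.048 and none was called. The part of these cells in the member differences was not tested.

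Within a breed the same heat comparison called no probe of any kind (limma, 0 of 47083 in LW, CR and F1), with 2, 1 and 0 members at an unadjusted p under 0.05, beside 6.76, 5.88 and 5.71 percent of all kept probes. In LW 52 of 72 members were higher in HS (median 0.037) and 20 lower, beside 48.3 percent of all kept probes lower, in CR 55 (median 0.055) and in F1 55 (median 0.044), beside 51.7, 51.1 and 52.9 percent of all kept probes higher. The test of the difference between breeds in the heat response, an interaction F-test, called 0 of 47083 probes, with 2 members at an unadjusted p under 0.05 (beside 4.29 percent) and a smallest adjusted p of 0.92 among members.

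Among the breed comparisons, the F1 against CR difference had the most calls. In F1 the chosen probes of RPS27A, RPL7, RPLP1 and RPS9 were lower and that of RPL17 was higher. With these, 5 of 72 chosen probes were called (limma, adjusted p under 0.05), beside 6.66 percent of all kept probes (3.35 percent higher and 3.31 percent lower). Counted over all kept probes of the members, 33 of 274 were called, 31 of them lower in F1. Of the 1803 kept probes at a mean level of 14 or more, 227 were called, 101 of them lower. LW against CR, F1 against CR and F1 against LW share arrays, and each is given by its own values. The probes that carry these differences are 60 bases long and are printed as the array lists them. They are shown because the calls rest on them, and are in lower case throughout since no part of them is singled out.
RPS27A: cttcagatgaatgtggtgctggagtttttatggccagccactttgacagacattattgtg
RPL7: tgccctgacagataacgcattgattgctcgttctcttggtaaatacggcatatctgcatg
RPSA: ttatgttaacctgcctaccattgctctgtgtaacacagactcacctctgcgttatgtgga
RPL17: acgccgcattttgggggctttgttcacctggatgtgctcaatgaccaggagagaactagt
RPS9: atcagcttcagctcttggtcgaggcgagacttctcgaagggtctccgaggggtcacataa

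RPS27A encodes ubiquitin fused to a small subunit protein, from which the cell takes both. Its level was 17.13 to 17.41 (median 17.31) in CR, 16.90 to 17.41 (median 17.16) in LW and 16.19 to 17.28 (median 16.90) in F1, with 11 arrays each. Of the 11 F1 arrays, 9 lay below every CR array and the other 2 were within the CR range. The log2 difference of F1 against CR was -0.46 ± 0.098 (SE), limma adjusted p = 0.0042, and on each of the 5 slides it had this sign, at -0.66 to -0.32. RPS27A stayed called under all 47 alternatives, at -0.51 to -0.30.

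RPL7, a large subunit protein with a basic leucine zipper-like region, had 17 kept probes in 7 sets without a shared run of 18 bases. Its chosen probe read 17.32 to 17.63 (median 17.47) in CR, 17.14 to 17.73 (median 17.34) in LW and 16.85 to 17.55 (median 17.22) in F1. Against CR, 8 of 11 F1 arrays lay below every CR array, and the log2 difference was -0.25 ± 0.072, limma adjusted p = 0.029. All 17 probes had lower means in F1, from -0.34 to -0.062, and 12 were called. The probes with the smallest differences included O8710, at a level of 8.17, far below the 17.36 of the chosen probe, and whether O8710 reads the strand of the RPL7 message could not be checked here.

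RPSA, the small subunit protein that also serves as a laminin receptor, had 7 kept probes in 5 such sets. The chosen probe was at 15.44 to 15.71 (median 15.57) in CR and 15.29 to 15.51 (median 15.46) in F1, a difference of -0.14 ± 0.045 that missed the threshold with limma adjusted p = 0.052. The other 6 probes were all called, at -0.47 to -0.20. The printed probe A_72_P525469 read 14.36 to 14.78 (median 14.50) in CR and 13.78 to 14.46 (median 14.07) in F1, with 10 of 11 F1 arrays below every CR array, and its difference of -0.41 ± 0.078 had adjusted p = 0.0016. On each of the 5 slides that probe was lower in F1, by -0.56 to -0.31. The 3 RPSA probes with differences beyond -0.40 were dimmer than the chosen probe, at 12.46 to 14.31.

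RPL10A, the protein of the L1 stalk, was lower in F1 on all 11 kept probes (-0.29 to -0.17). Of these, 11 had an unadjusted p under 0.05 and 6 were called. RPL5, the carrier of 5S ribosomal RNA, had 19 kept probes, all with lower means in F1 (-0.33 to -0.11) and 13 at an unadjusted p under 0.05, but none was called. RPLP1 fell by 0.19 ± 0.052 on the log2 scale (limma adjusted p = 0.024), from 17.98 to 18.18 (median 18.12) in CR to 17.66 to 18.14 (median 17.86) in F1, with 7 of 11 F1 arrays below every CR array. RPLP1 had 6 kept probes in 3 sets without a shared run of 18 bases, and only the chosen probe was called in this comparison. The other stalk proteins were not called, RPLP0 at -0.23 with adjusted p = 0.40 and RPLP2 at -0.055 with 0.53. Single further probes were called for, among others, RPL6, RPS26 and RPS29 on the lower side, and for RPL23 on the higher side, whose called probe O14263 was dim at 7.25 while its other 5 probes read -0.016 to 0.050.

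The probe named RPL17, after a large subunit protein at the peptide exit tunnel, was the chosen probe called higher in F1. Its level was 10.17 to 10.56 (median 10.48) in CR, 10.19 to 10.73 (median 10.44) in LW and 10.33 to 11.29 (median 10.68) in F1, and 7 of 11 F1 arrays lay above every CR array. The log2 difference was 0.36 ± 0.094, limma adjusted p = 0.019, with the same sign on 5 of 5 slides at 0.29 to 0.70. The probe named RPS9, after a protein that guards decoding accuracy on the small subunit, read 9.80 to 10.32 (median 10.09) in CR. It read 9.59 to 10.23 (median 9.82) in LW and 9.65 to 10.04 (median 9.79) in F1. Its F1 against CR difference was -0.24 ± 0.072 with adjusted p = 0.039, and that call was lost under 17 of 47 alternatives.

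The printed probes of RPL17 and RPS9 are dim beside most members, at mean levels of 10.57 and 9.92, and neither gene had another kept probe. Their strand relative to the messenger RNA could not be checked with the files used here, so a signal from the other strand cannot be told apart from the gene's own. The differences of both are therefore given for the probe and are not shown for the message.

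Scaling changes the sign of the list in this comparison. With quantile normalization 26 of 72 members were higher in F1 than in CR (median -0.038), beside 53.3 percent of all kept probes. With the processed intensity scaled to the 75th percentile of each array, 51 of 72 were higher (median 0.054), and bright probes as a whole moved in the same way, from a median of -0.016 to 0.060. Under that scaling the members called were RPS27A at -0.37 and RPL17 at 0.36, RPL7 was at -0.16 (adjusted p = 0.23) and RPLP1 at -0.0061 (adjusted p = 0.97), and of the probe calls 0 of 12 were kept for RPL7, 0 of 6 for RPL10A and 3 of 6 for RPSA.

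**Figure D4:**
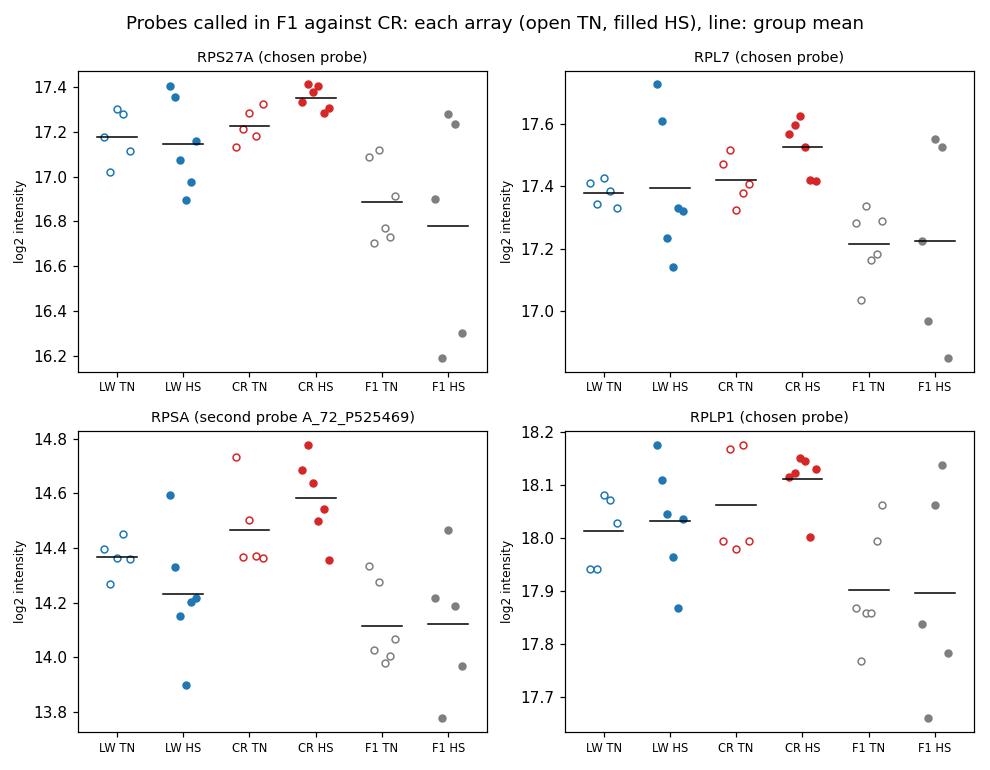
Level (y axes, log2 quantile-normalized intensity) of RPS27A, RPL7 and RPLP1 on their chosen probe and of RPSA on probe A_72_P525469, in each of 33 arrays by breed and temperature (x axes); open points are TN, filled points HS and lines group means. F1 arrays lie lower than CR arrays in all 4 panels, with ranges that overlap, and F1 HS 2 and F1 HS 5 read 16.19 and 16.30 for RPS27A.

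A few arrays set much of the spread of these members. F1 HS 2 and F1 HS 5 read 16.19 and 16.30 for RPS27A, 16.97 and 16.85 for RPL7, and 11.29 and 11.16 for RPL17, while F1 HS 3 and F1 HS 4 read 17.28 and 17.23, 17.55 and 17.52, and 10.33 and 10.49. After group means were removed, RPS27A and RPL7 correlated at r = 0.88, RPS27A and RPL17 at -0.81 and RPL7 and RPL17 at -0.80, over 33 arrays that share slides and normalization. Over all 2556 pairs of chosen probes the median r was 0.22 and 72.1 percent were above 0. Without F1 HS 2, F1 HS 5 and LW HS 4, chosen after these values were seen, RPS27A was still called at -0.30, while RPL17 at 0.25, RPL7 at -0.16 and RPLP1 at -0.14 were not.

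Against LW, 1 member differed in F1, beside 1.43 percent of all kept probes (0.531 percent higher and 0.901 percent lower). RPS25 read 15.63 to 16.07 (median 15.93) in LW and rose to 15.83 to 16.35 (median 16.14) in F1, and 9 of 11 F1 arrays lay above every LW array. The log2 difference was 0.25 ± 0.064, limma adjusted p = 0.038, of the same sign on 5 of 5 slides, and the call was lost under 19 of 47 alternatives with values of 0.23 to 0.28 throughout. The RPS25 probe, its 1 kept probe, is printed because the call rests on it alone.
RPS25: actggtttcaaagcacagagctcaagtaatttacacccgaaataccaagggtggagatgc

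RPS27A was also lower in F1 than in LW, at -0.32 with adjusted p = 0.090, which did not pass. Set against the mean of the parental breeds, F1 had 2 members called, beside 2.75 percent of all kept probes (1.04 percent higher and 1.71 percent lower). RPS27A fell by 0.39 ± 0.085 on the log2 scale (limma adjusted p = 0.010) and the signal of the RPL17 probe rose by 0.33 ± 0.081 (adjusted p = 0.021). For these 2 probes the F1 median lay outside the interval between the LW and CR medians. The 1803 kept probes at a mean level of 14 or more had 148 called in this comparison, 74 of them lower. Of the 274 kept member probes, 19 were called, 17 of them lower, including 9 of RPL7, 5 of RPL10A and 2 of RPSA. With the processed intensity RPS27A was at -0.32 with adjusted p = 0.078, and none of those 9, 5 and 2 calls was kept.

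LW and CR, the 2 parental breeds, differed in 2 chosen probes, beside 6.53 percent of all kept probes (3.53 percent higher and 2.99 percent lower). The signal of the RPS9 probe fell by 0.23 ± 0.072 on the log2 scale in LW (adjusted p = 0.043), with 4 of 11 LW arrays below every CR array. RPS9 lost its call under 21 of 47 alternatives. With LW HS 3 taken as Creole, as its breed field has it, RPS9 was at -0.22 with adjusted p = 0.085 and 0 chosen probes were called. RPS6, the substrate of the S6 kinases, was not called at 0.45 ± 0.15 with adjusted p = 0.082.

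In LW against CR 60 of the 1803 kept probes at a mean level of 14 or more were called, 27 of them lower. Over all kept member probes 8 of 274 were called, 6 of them lower. With the processed intensity 2 were called and 0 lower, so that the lower calls of RPL32, RPSA and RPS13 given here were lost, and with LW HS 3 as Creole 3 were called, 2 of them lower. RPL32 was lower on 2 called probes, at -0.18 ± 0.040 and -0.16, and all 7 of its probes had lower means. Probe A_72_P726053 of RPL32 read 17.04 to 17.25 (median 17.14) in CR and 16.85 to 17.16 (median 16.94) in LW, with 9 of 11 LW arrays below every CR array. RPSA had lower means in LW on all 7 probes, with 7 at an unadjusted p under 0.05 and 1 called (-0.25, adjusted p = 0.020). RPS4 had higher means on all 15 probes (0.045 to 0.14), of which 1 had an unadjusted p under 0.05 and none was called. Over the chosen probes 22 of 72 were higher in LW (median -0.030), beside 49.5 percent of all kept probes, and the processed intensity turned this to 43 of 72 (median 0.023). Within TN no chosen probe was called and the smallest adjusted p was 0.50, beside 0.935 percent of all kept probes, with 1 member at an unadjusted p under 0.05, beside 9.91 percent. Within HS none was called, with a smallest adjusted p of 0.051, beside 3.04 percent. There RPL3, a large subunit protein near the peptidyl transferase centre, was at -0.39 ± 0.11 and RPLP0 at -0.61 ± 0.19 (limma adjusted p = 0.078).

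Different probes of a gene did not always tell the same story, and RPL38, RPL6, RPS6, RPL30 and RPS10 differed most between their probes in LW against CR, followed by RPS13. RPL38, a large subunit protein known for its role in patterning the skeleton, had a chosen probe at 15.60 to 16.09 in CR, and a second probe, A_72_P016041, that took either of 2 levels. On that probe 5 of 11 LW arrays and 2 of 11 F1 arrays read 13.94 to 14.33, while 6 LW, 9 F1 and all 11 CR arrays read 11.52 to 12.25. Its LW against CR difference was 1.06 with adjusted p = 0.065, against -0.074 on the chosen probe. RPS6 showed a split of another kind. Its chosen probe O8731 read 14.72 and 14.82 on 2 CR arrays, 15.65 to 15.82 on 4 CR and 2 F1 arrays, and 15.95 to 16.46 on the other 5 CR, 9 F1 and 11 LW arrays. The second probe, A_72_P131691, stayed at 15.63 to 16.04 in all 3 breeds. RPS13, a small subunit protein of the subunit interface, was called lower in LW on O11240 (-0.33 with adjusted p = 0.0087; 15.76 to 16.41 in LW and 16.03 to 16.56 in CR) and read -0.018 on its chosen probe. RPL30 was called higher on O2275 (0.44, adjusted p = 0.022), a probe at a level of 8.28, and read 0.050 to 0.12 on its other 3 probes at 15.06 to 15.97. RPS10, a small subunit protein, read -0.37 and -0.23 on its dim probes at 9.85 and 9.81 and -0.024 to 0.024 on its other 4, none called. The probes of RPS6 and the discordant probe of RPS13 are printed, without capitals, because the results of each gene depend on which of its probes is read.
RPS6 chosen probe: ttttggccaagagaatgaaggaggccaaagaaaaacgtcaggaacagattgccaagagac
RPS6 second probe: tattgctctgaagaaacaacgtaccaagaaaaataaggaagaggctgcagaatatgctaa
RPS13 second probe: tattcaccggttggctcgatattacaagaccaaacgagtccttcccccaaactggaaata

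RPL6 had 15 kept probes, and 11 of them overlap into a single run, which allows the difference to be followed along the transcript. Capitals mark the longest run a probe shares with A_72_P756548, and in A_72_P756548 itself the run shared with A_72_P730073, and probes without capitals share no long run with it. The 11 are given in order of their first base.
A_72_P729538: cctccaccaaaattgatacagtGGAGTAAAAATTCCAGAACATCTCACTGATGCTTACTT
A_72_P756548: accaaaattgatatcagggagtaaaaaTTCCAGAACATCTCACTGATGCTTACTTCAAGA
A_72_P720998: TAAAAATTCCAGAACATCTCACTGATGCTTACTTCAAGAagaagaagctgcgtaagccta
A_72_P730073: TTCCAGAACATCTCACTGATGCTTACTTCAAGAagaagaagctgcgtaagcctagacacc
A_72_P722398: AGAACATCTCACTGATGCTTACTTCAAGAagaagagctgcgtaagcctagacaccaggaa
A_72_P761955: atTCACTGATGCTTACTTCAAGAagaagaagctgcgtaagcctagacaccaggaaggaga
A_72_P719128: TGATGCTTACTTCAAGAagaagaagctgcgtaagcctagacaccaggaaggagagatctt
A_72_P722393: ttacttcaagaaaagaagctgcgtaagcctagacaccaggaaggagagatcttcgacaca
A_72_P734143: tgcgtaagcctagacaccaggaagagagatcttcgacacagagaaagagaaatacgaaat
A_72_P740378: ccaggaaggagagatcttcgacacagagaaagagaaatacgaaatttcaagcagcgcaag
A_72_P727278: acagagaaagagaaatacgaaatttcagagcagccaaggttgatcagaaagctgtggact

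The LW against CR log2 difference was -0.45 and -0.66 on the first probes, A_72_P729538 and A_72_P756548, between -0.39 and -0.25 on the next 7 in no steady order, and -0.034 and -0.069 on the last, A_72_P740378 and A_72_P727278. None of the 11 was called, with adjusted p of 0.055 to 0.81, and 9 of the 15 RPL6 probes had an unadjusted p under 0.05. F1 against CR ranged from -0.67 to -0.056, and both comparisons share the CR arrays. Probe A_72_P756548 was low, at 11.56 to 12.23, on F1 HS 3, LW HS 2, F1 HS 4 and LW HS 3, and read 12.78 to 14.16 on the other arrays, while the chosen probe of RPL6, outside this run, had an LW against CR difference of -0.086. Whether a variant in the animals underlies the probe differences of RPL6, RPL38, RPS6 or RPS13 was not tested.

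**Figure D5:**
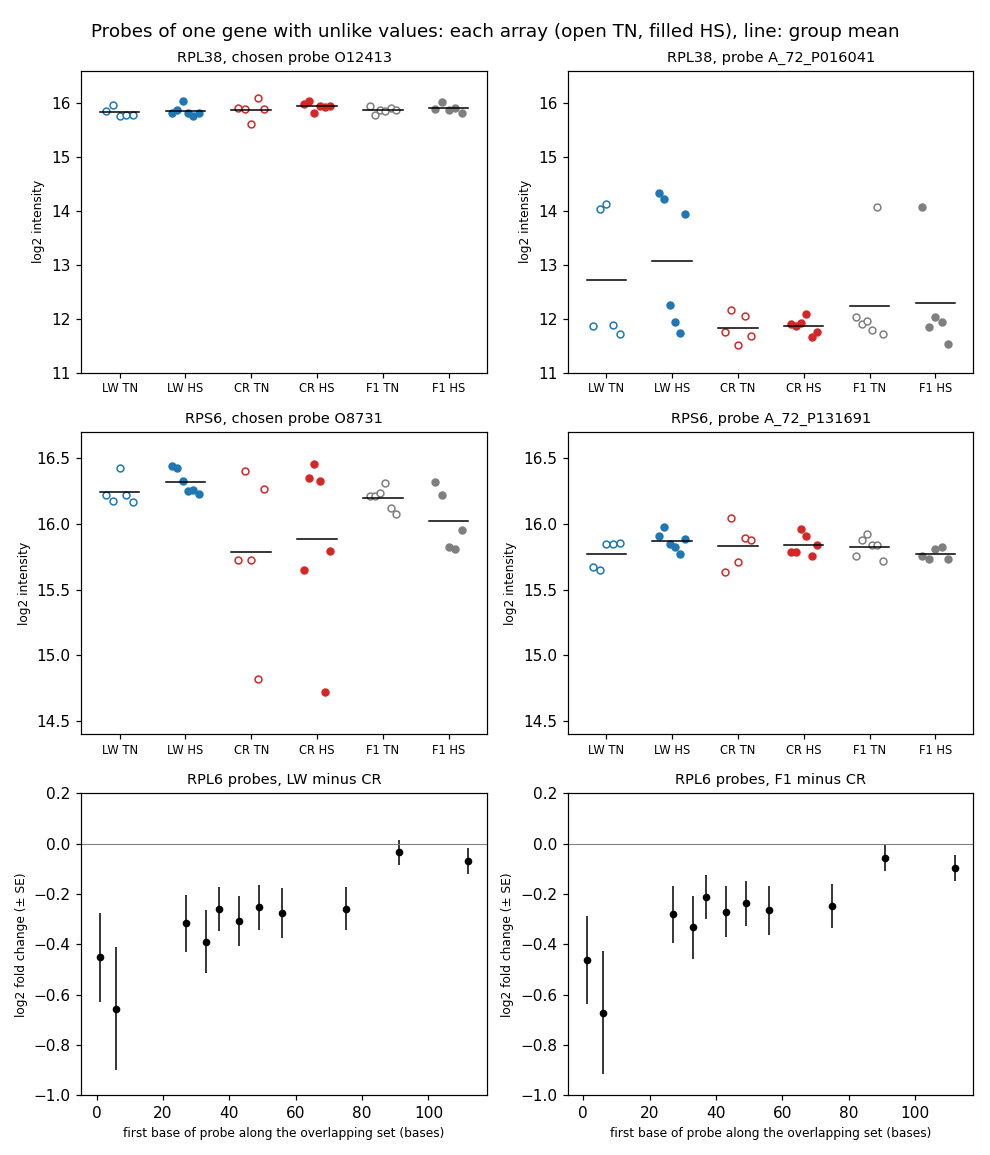
Upper and middle panels give the level (y axes, log2 quantile-normalized intensity) of a pair of probes each of RPL38 and RPS6 on 33 arrays by breed and temperature (open TN, filled HS, lines group means); the lower panels give the log2 fold change ± SE of 11 overlapping RPL6 probes by the position of their first base. RPL38 A_72_P016041 takes 2 levels while its chosen probe does not, and the RPL6 differences of LW against CR range from -0.66 to -0.034, with the last probes of the run nearest 0.

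Some members cannot be told apart from other transcripts by their probes. Of the 274 kept member probes, 51 shared at least 18 bases with a probe of another name, and 16 of these were chosen probes. RPL10 and RPL10L, a paralogue pair, share 49 bases between RPL10 probe A_72_P739176 and the RPL10L probe, in capitals here.
RPL10: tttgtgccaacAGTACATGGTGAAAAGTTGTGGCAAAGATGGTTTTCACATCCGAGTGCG
RPL10L: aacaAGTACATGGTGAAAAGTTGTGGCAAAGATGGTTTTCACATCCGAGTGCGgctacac

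The RPL10L probe read 15.22 and the RPL10 probe 14.52, and neither RPL10 nor RPL10L was called in any comparison. RPS27 and RPS27L read 10.08 and 7.38, and RPL3 and the probe named RPL3L 13.60 and 16.16, also without a call. The probe named RPL3L carries that name on the array alone, and the files used here could not settle whether it reads RPL3L or RPL3. Further, 10 kept member probes, 4 of them chosen, lie opposite to a probe of the other strand. The RPS2 probe, at 8.40, faces probes at 14.91 and 15.25, the latter named RPS2P32, and the RPL26 probe, at 11.87, faces a probe at 14.63. The RPS28 and RPS10 probes, at 17.94 and 15.49, face probes at 5.99 and 5.44.

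The wider translation machinery was read from lists of other genes, by the brightest kept probe of each. In HS against TN none of their members was called, and most had higher means, as 52 of 56 mitochondrial ribosomal proteins did (median 0.062), 33 of 38 initiation factors (median 0.060), 32 of 40 ribosome biogenesis factors (median 0.035), 15 of 17 ribosome-associated proteins (median 0.041) and 11 of 14 elongation and release factors (median 0.028). Of the mTOR and TOP mRNA regulators, 6 of 14 were higher, with a median of -0.0059. Over all kept probes 53.9 percent were higher, with a median of 0.0078, and 0.0191 percent were called. In F1 against CR the calls went down for EEF1A1, the elongation factor that delivers aminoacyl-tRNA, at -0.26 ± 0.051 (limma adjusted p = 0.0021), and for TPT1, a growth-related protein, at -0.30 ± 0.070 (0.0094). BTF3, a subunit of the nascent polypeptide-associated complex, fell by 0.28 on the log2 scale, GNL3, a nucleolar GTPase, by 0.23, EIF1AX by 0.32, EIF3H by 0.31 and SRP54 by 0.31. EIF4G2, a translation factor for uncapped initiation, rose by 0.53, EEF2K, the kinase of EEF2, by 0.24, MRPL2 by 0.25 and MRPS18A by 0.20, while MRPL37 fell by 0.46. These called genes are 3 of 38 initiation factors, 3 of 14 elongation and release factors, 2 of 17 ribosome-associated proteins, 1 of 40 biogenesis factors and 3 of 56 mitochondrial ribosomal proteins, beside 6.66 percent of all kept probes called, and nothing particular to these lists is read from the counts. With the processed intensity EEF1A1 was at -0.13 (adjusted p = 0.16), TPT1 at -0.21 (0.15) and BTF3 at -0.23 (0.057), and GNL3 at -0.21 (0.034) stayed called.

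In LW against CR, NCL, the nucleolar protein nucleolin, rose by 0.92 ± 0.20 (limma adjusted p = 0.0036), EEF2K by 0.30 and MRPL2 by 0.16, while EEF1G fell by 0.18, EIF2B3 by 0.34 and MRPL9 by 0.25 on the log2 scale. They are 1 of 40 biogenesis factors, 2 of 14 elongation and release factors, 1 of 38 initiation factors and 2 of 56 mitochondrial ribosomal proteins, beside 6.53 percent of all kept probes called. Endothelial and stromal genes differed between breeds too, with 9 of 10 lower in F1 than in CR (median -0.23), 4 of 10 called lower and 1 called higher, beside 3.31 and 3.35 percent of all kept probes. COL1A2, a collagen chain, fell by 0.59 and TEK by 0.75 in F1 against CR, and KDR, a receptor for vascular growth factor, rose by 0.59. In LW against CR 4 of the 10 were called lower and 2 higher, beside 2.99 and 3.53 percent. There COL1A2 fell by 0.56 and DCN by 0.69, while KDR rose by 0.94. Their part in the breed differences of the ribosomal protein genes was not tested.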

How the data were processed

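Total RNA from 33 pituitary samples was labelled with Cy3 and hybridised to single-colour Agilent arrays. The authors deposited scanner intensity per spot and a table of their own log2 quantile-normalized values, which differed from the values here by a median of 0.0038, covers 45667 probes and was used as an alternative. From the deposited intensity, the median signal of each spot without background correction was quantile-normalized and taken to log2, spots marked as outliers were left out, and spots of a probe were averaged. limma 3.58.1 in R 4.3.3 fitted breed and temperature over all 33 arrays, or 1 mean per group, and the Benjamini-Hochberg method was applied to all 47083 kept probes, with a threshold of 0.05. The p-values measure the spread between animals, which were treated as independent. The paper arranged the pigs in blocks of littermates, but litter is not in the labels used here and was not fitted. The submitters' processing notes name Agilent Feature Extraction 10.10.1.1 and limma. Alternatives changed the signal, background correction, filter, slide term, array weights, covariate, choice of probe and breed of LW HS 3, or left out arrays. The fit was tested on simulated data. Named members were those called, the extremes in level, SD and probe disagreement, the stalk proteins, RPSA and paralogues, and for comparisons without calls the 3 smallest p in each direction. RPL5, RPL11, RPS26, RPS28 and RPL26 outside that rule were chosen after their values were seen. Some members are counted but not reported here by name. The members and lists were chosen with earlier results of these data known. The scanner's 0 or 1 spot marks were deposited as other values and used as filters.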

Additional observations from a re-analysis of the deposited data

Results flagged for a closer look

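Within the 6 groups, the chosen probes of the members named by the rule, and the median over members, were examined, and an array was set apart when it was the highest or lowest of its group and lay far from the others relative to the range of the group. This was so in 15 of 270 sets of values tested, over 12 genes, and chance gives about 1 in 20. On LW TN 2 the levels of RPL10L at 14.98, RPS16 at 13.99 and RPS23 at 16.78 were low and that of RPSA at 15.60 high. On F1 TN 1 the levels of RPL41 at 8.25, RPS7 at 7.71 and RPS10 at 15.30 were low, and on CR TN 1 those of RPL41 at 7.96 and RPS7 at 7.42, arrays that lie on slide 2. RPL23 was high on LW HS 2 at 17.07 and RPS6 on LW TN 3 at 16.43. Low arrays were CR HS 5 for RPLP1 at 18.00, F1 TN 6 for RPS27L at 7.17, F1 TN 5 for RPS29 at 16.44 and F1 HS 4 for RPSA at 15.32.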

How the results depend on the processing

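Results were recomputed under 47 alternatives, of which 33 left out 1 array and 2 were chosen after seeing the data. Comparisons within a breed or a temperature had 46, since they have no other factor to leave out. HS against TN had 0 members called under every one. Called members kept their sign throughout, and kept their call in 385 cases and lost it in 85. With the processed intensity the members called were 1 for LW against CR, 0 for F1 against LW, 2 for F1 against CR and 1 for F1 against the parental mean, and the member medians moved to 0.0227 for LW against CR, 0.0544 for F1 against CR and 0.0543 for F1 against the parental mean. With normexp background they were 10 for F1 against CR, 4 for F1 against the parental mean and 1 for LW against CR within HS. Without a filter on dim probes LW against CR had 1, and with probes well above background on all arrays LW against CR within HS had 1. A fixed slide block gave 4 for LW against CR and 11 for F1 against CR, and a random one 12 for F1 against CR, 5 for F1 against the parental mean and 1 for LW against CR within HS. Array weights gave 5 for F1 against LW, 14 for F1 against CR, 7 for F1 against the parental mean and 3 for LW against CR within HS. With LW HS 3 as Creole LW against CR and F1 against LW had 0 each, and without that array 1 and 0. The mean of all probes of a gene gave 4 for F1 against the parental mean and 1 for LW against CR within HS. Without the other factor F1 against LW had 0 and F1 against CR 8. Without slides 1 and 2, LW against CR, F1 against LW and F1 against the parental mean had 0, F1 against CR 1 and LW against CR within HS 1. Without F1 HS 2, F1 HS 5 and LW HS 4, LW against CR had 1, F1 against LW 0, F1 against CR 1 and F1 against the parental mean 1. The cause of these shifts was not tested.

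Leaving out 1 array gave 0 to 3 members for LW against CR (0 without CR TN 1, CR TN 5 or CR HS 6), 0 to 3 for F1 against LW (3 without F1 HS 3 or F1 HS 4), 2 to 12 for F1 against CR (2 without F1 HS 2, 3 without F1 TN 2 or F1 HS 5, 8 without LW TN 2, 12 without F1 HS 3), 1 to 6 for F1 against the parental mean (6 without F1 HS 3, F1 HS 4 or LW HS 4, 4 without LW HS 5, 1 without F1 HS 1, F1 HS 2, F1 HS 5 or F1 TN 4) and, where it changed, 1 to 2 for LW against CR within HS (2 without LW HS 1). No paired analysis was possible because the labels give no replicate numbers that tie animals across groups. The number of arrays limits the precision.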
